A study of Mus musculus with 9 samples.

Results

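Oligodendrocytes are the glial cells that wrap axons of the central nervous system in myelin, and 34 mouse genes of their lineage were followed here in medulloblastoma, a tumour of the cerebellum. The members were the genes whose symbol is on a list of lineage and myelin genes. All 34 were found among the 23360 genes of the deposited tables, and all 34 were expressed highly enough somewhere to be tested with the 14337 genes that passed a filter on low values. By role they were 4 transcription factors, 3 precursor genes, 3 genes of committed precursors and newly formed oligodendrocytes, 9 myelin sheath genes, 3 genes of myelin lipid synthesis and acetate supply, and 12 other genes enriched in mature oligodendrocytes. Total RNA of whole tissue, depleted of ribosomal RNA, was sequenced on an Ion Proton in 9 libraries, 3 per group. A1G tumours were primary Sonic Hedgehog medulloblastomas of mice labelled Math1-cre;A1G;Ptch1+/-, which carry a Cre recombinase under the Math1 (Atoh1) promoter, an A1G allele and a heterozygous mutation of Ptch1, which encodes the receptor that holds Hedgehog signalling in check. The labels do not describe the A1G allele, and the series' design text speaks of ATOH1 together with aberrant Hedgehog signalling. Ptch1 tumours were primary tumours of the same class from mice labelled Ptch1+/- alone, so both tumour kinds share the Ptch1 mutation. The third group was cerebellum of wild-type adult mice. The tumour animals were of mixed strain and carried the Ptch1 mutation, and the cerebellum donors were wild-type C57BL/6. Strain, genotype and tissue therefore cannot be told apart in the comparisons with cerebellum. No ages beyond adult cerebellum, and no statement that replicates came from separate animals, were given in the labels, so the p-values measure the spread between libraries.

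Oligodendrocytes arise from precursor cells that divide, migrate and carry the platelet-derived growth factor receptor alpha (Pdgfra) and the proteoglycan NG2 (Cspg4) on their surface. As precursors commit, they pass through a stage marked by Gpr17 and Bcas1, then switch on the structural proteins and galactolipids of the myelin sheath. Olig2 and Sox10 specify the lineage, and Olig2 is also made by neural progenitors and by cells of Hedgehog-driven tumours. Math1 is active in granule neuron progenitors, the cells from which Hedgehog medulloblastomas arise, and those progenitors are not part of the oligodendrocyte lineage.

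The libraries held 2350941 to 9290237 fragments assigned to genes, and a count of 0 was read as under 3 fragments, a limit equal to 0.337 to 1.23 normalised CPM (counts scaled to a common library size). All levels below are given as normalised CPM in the order of replicates 1, 2 and 3. Floors cover counting error only, while standard errors (SE) and standard deviations (SD) include the spread between libraries. Of 9 granule neuron progenitor markers, 9 rose in each tumour kind over cerebellum, and of 10 mature cerebellar neuron markers 10 fell in each. Among all tested genes 16.3% rose and 16.1% fell in A1G tumours, and 20.2% rose and 19.7% fell in Ptch1 tumours. Libraries of a group were not alike in every respect. The proliferation antigen Mki67 was at 620.3 CPM in A1G replicate 2, against 3475 and 2597 CPM in the other A1G libraries, and that library was the lowest of its kind in 20 of the 34 members. Ptch1 replicate 1 was the highest of its kind in 18 of 34 members. Cerebellum replicate 1 held 2678 CPM of the choroid plexus gene Ttr, against 37.7 and 83.5 CPM in the other cerebellum libraries. In whole tissue, fewer cells of a type and less RNA per cell cannot be told apart.

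**Figure D1:**
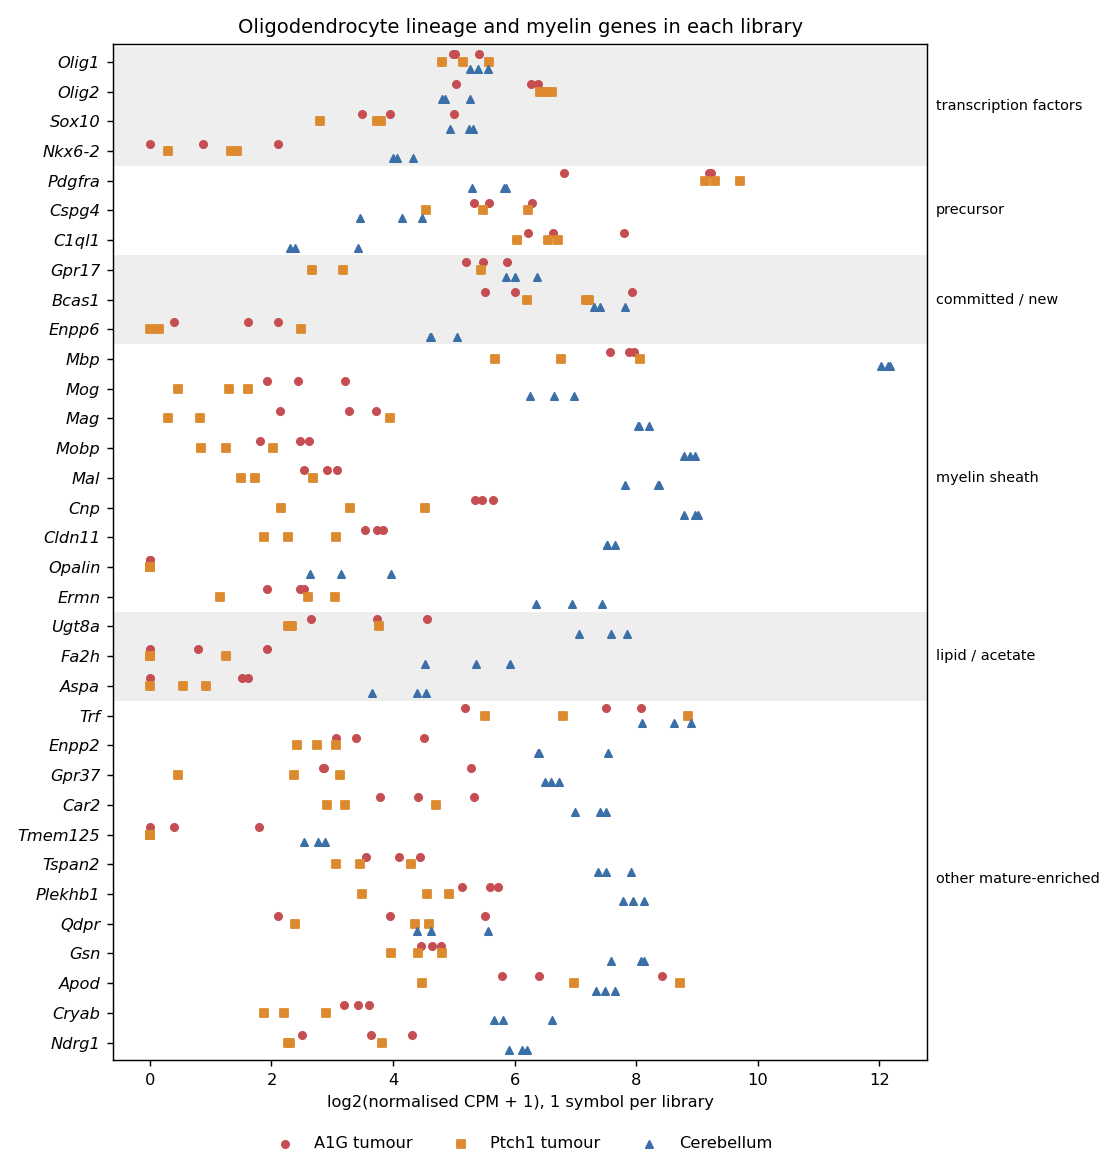
Level of each of the 34 members in each library, as log2(normalised CPM + 1) on the horizontal axis, with 1 symbol per library and members grouped by role. In each of the 3 precursor genes the cerebellum symbols lie left of all tumour symbols, and in each of the 9 myelin sheath genes they lie right of them.

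Against adult cerebellum the 3 precursor genes stood higher in the tumours, the genes of the finished myelin sheath stood far lower, and the transcription factors lay between. Of 16 further precursor genes, 3 rose and 2 fell in A1G tumours and 1 rose and 4 fell in Ptch1 tumours, with a median log2 fold change of 0.23 in A1G tumours and -0.61 in Ptch1 tumours. In A1G tumours 4 members rose and 22 fell, where 16.3% of all tested genes rose and 16.1% fell (Benjamini-Hochberg adjusted p under 0.05 by the quasi-likelihood test of edgeR over 14337 genes). In Ptch1 tumours 4 members rose and 25 fell, where 20.2% of all tested genes rose and 19.7% fell. The 4 that rose in each tumour kind were Olig2, Pdgfra, Cspg4 and C1ql1. The median log2 fold change of the 34 members was -2.98 in A1G tumours and -3.98 in Ptch1 tumours, beside 0.03 and 0.00 for all tested genes. With genes absent from a tumour group set at the lower bound that the floor allows, the medians were -2.94 and -3.73. Both comparisons use the same 3 cerebellum libraries, so their values are given side by side and are not independent of each other. Of the 34 members, 29 reached an FPKM of 1 in at least 3 tumour libraries, and 1, Opalin, passed the filter on low values through cerebellum alone. The other 4, Fa2h, Aspa, Enpp6 and Tmem125, also needed cerebellum libraries to pass. The falls of these 5 follow in part from the filter. They make up 4 of the 22 falls in A1G tumours and 5 of the 25 in Ptch1 tumours, which leaves 18 and 20 falls among the other 29 members.

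**Figure D2:**
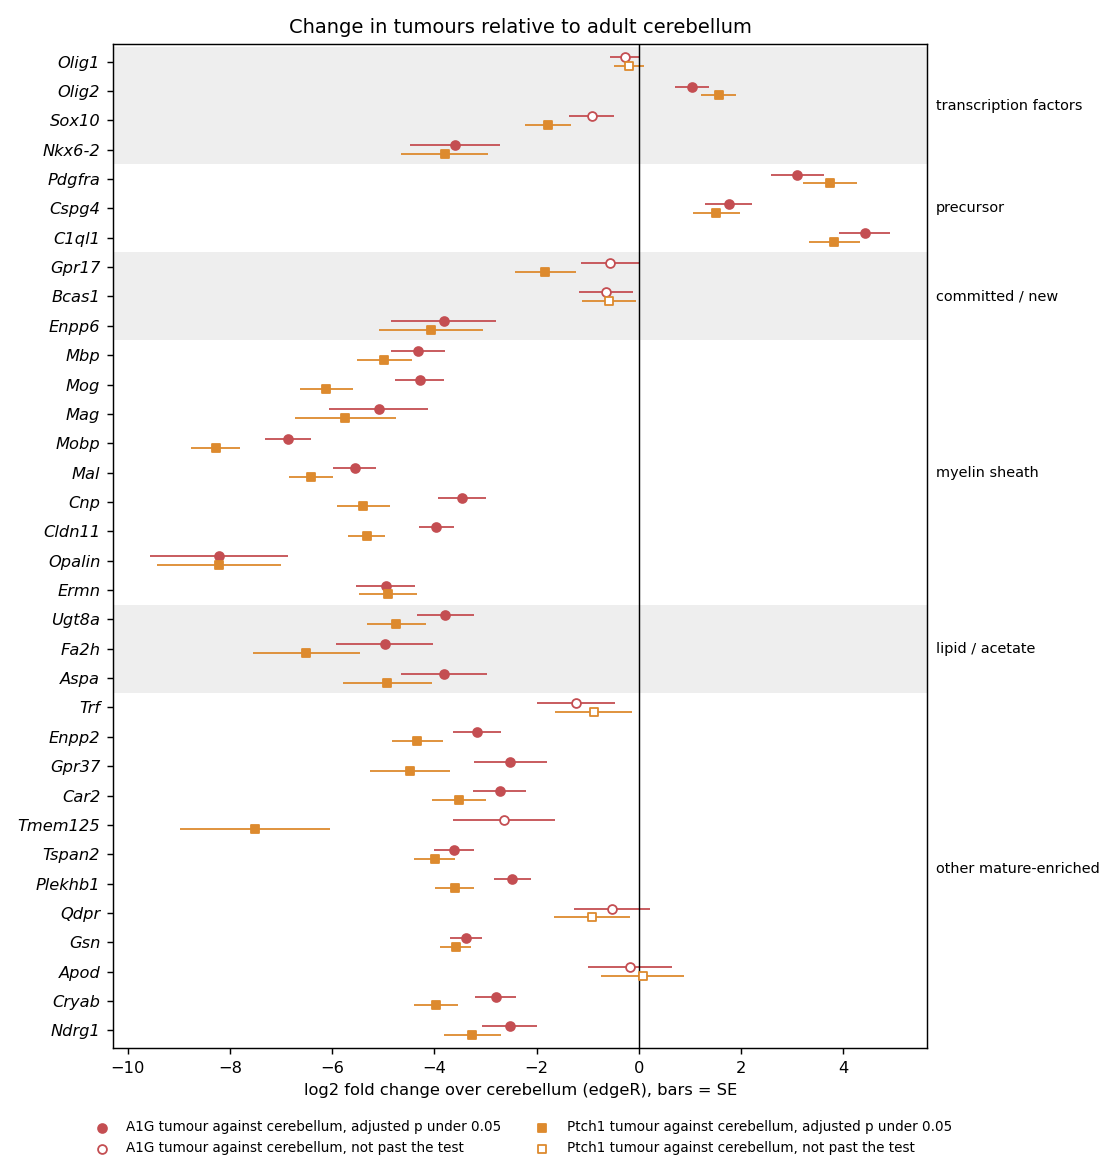
Log2 fold change of each member over cerebellum on the horizontal axis, for A1G tumours (circles) and Ptch1 tumours (squares), with bars for the standard error of edgeR's fit and filled symbols where the adjusted p was under 0.05. Precursor genes lie right of 0, from 1.52 to 4.42, and myelin sheath genes left of it, from -8.28 to -3.46. The fitted values of Opalin in both tumour kinds and of Tmem125 in Ptch1 tumours stand for groups without a fragment and are no measure of size.

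The stretches before the transcription starts of Pdgfra, which rose, and of Mobp, Cnp and Mog, which fell, are shown because these members stand for the precursor and the myelin side of the contrast. They are from RefSeq's promoter table on GRCm38.p6 and were shortened where the GENCODE M21 gene begins earlier than the RefSeq start. The capitals mark matches, on either strand, to the Sox-type core ACAAAG, the related core ACAATG, and the E-box CANNTG that basic helix-loop-helix factors such as Olig2 can bind. No matches overlapped in these stretches. The Pdgfra stretch is chr5:75152001-75152250 on the plus strand, that of Mobp is chr9:120149492-120149706 on the plus strand, that of Cnp is chr11:100574689-100574903 on the plus strand and that of Mog is chr17:37023399-37023648 on the minus strand.
Pdgfra: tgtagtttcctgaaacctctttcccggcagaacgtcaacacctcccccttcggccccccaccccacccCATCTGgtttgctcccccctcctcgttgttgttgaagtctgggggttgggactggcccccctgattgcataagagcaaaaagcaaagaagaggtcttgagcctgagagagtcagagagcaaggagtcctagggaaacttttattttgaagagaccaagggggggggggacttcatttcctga
Mobp: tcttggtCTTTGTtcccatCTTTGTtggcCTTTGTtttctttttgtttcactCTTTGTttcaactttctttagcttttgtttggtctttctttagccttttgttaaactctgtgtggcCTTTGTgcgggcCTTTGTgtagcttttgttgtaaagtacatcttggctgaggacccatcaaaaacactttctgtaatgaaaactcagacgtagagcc
Cnp: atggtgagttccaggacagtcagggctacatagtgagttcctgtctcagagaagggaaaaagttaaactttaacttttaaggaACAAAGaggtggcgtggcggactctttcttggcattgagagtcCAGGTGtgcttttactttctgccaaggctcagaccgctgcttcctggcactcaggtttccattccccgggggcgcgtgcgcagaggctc
Mog: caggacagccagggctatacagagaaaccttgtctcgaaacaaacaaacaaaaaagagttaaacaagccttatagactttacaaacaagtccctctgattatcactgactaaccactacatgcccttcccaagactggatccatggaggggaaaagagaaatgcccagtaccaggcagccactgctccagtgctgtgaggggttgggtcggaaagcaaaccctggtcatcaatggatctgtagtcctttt
The Mobp stretch holds 6 matches to ACAAAG, all on the minus strand as CTTTGT, and the Cnp stretch holds 1 with an E-box downstream of it. The Pdgfra stretch holds 1 E-box and no Sox-type core, and the Mog stretch holds none of the 3 motifs. The table held 28 windows for 22 members, since some genes have several starts. In the 250 bases before the start, 8 of the 28 windows (7 members) held ACAAAG, 3 (3 members) held ACAATG and 18 (14 members) held CANNTG. Over 32851 windows of all genes, 16.46% held ACAAAG, 10.69% held ACAATG and 66.22% held CANNTG. A match describes letters and is not a measured binding site.

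Among the transcription factors, Olig2 rose in both tumour kinds, Olig1 kept close to the cerebellum level, and Sox10 and Nkx6-2 were lower. Olig2, the basic helix-loop-helix factor that specifies the lineage (mm10, as for all genes below, chromosome 16, 91225457 to 91228677, plus strand), was at 82.2, 31.8 and 76.5 CPM in the A1G tumours, 84.7, 97.5 and 90.8 CPM in the Ptch1 tumours and 27.8, 27.1 and 37.3 CPM in cerebellum. Every Ptch1 tumour lay above every cerebellum library, while A1G replicate 2 lay inside the cerebellum range. The change was 1.04 on the log2 scale in A1G tumours (SE 0.34, adjusted p = 0.0345) and 1.56 in Ptch1 tumours (SE 0.34, adjusted p = 0.00325). The A1G call ended in 7 of 17 alternatives, whose adjusted p over all 17 ran from 0.00213 to 0.130. It ended without A1G replicate 1 (log2 0.81), A1G replicate 3 (0.88), cerebellum replicate 1 (0.97) or cerebellum replicate 2 (0.95), with limma on log2(FPKM + 1) or log2(FPKM + 0.1), and with the other tumour kind left out of the fit.

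Olig1, the neighbouring factor needed for oligodendrocyte maturation (chromosome 16, 91269772 to 91271933, plus strand), was at 41.7, 30.6 and 31.3 CPM in the A1G tumours, 34.6, 47.0 and 26.8 CPM in the Ptch1 tumours and 41.0, 37.7 and 46.3 CPM in cerebellum. The 3 groups overlapped, and neither tumour kind passed the test against cerebellum (log2 -0.27, SE 0.30, and -0.20, SE 0.29). Sox10, a high mobility group factor that drives myelin genes (chromosome 15, 79154908 to 79165240, minus strand), was at 31.0, 10.3 and 14.4 CPM in the A1G tumours, 12.4, 5.95 and 13.0 CPM in the Ptch1 tumours and 37.0, 29.5 and 38.7 CPM in cerebellum. All Ptch1 tumours lay below cerebellum, and A1G replicate 1 lay inside its range. Sox10 fell in Ptch1 tumours (log2 fold change -1.77, SE 0.45, adjusted p = 0.00819) and did not pass in A1G tumours (log2 fold change -0.92, SE 0.44, adjusted p = 0.134). Without A1G replicate 1 the A1G change was -1.51 with an adjusted p of 0.0272, in a range of 0.0272 to 0.300 over 17 alternatives. Nkx6-2, a homeobox factor that regulates myelination (chromosome 7, 139579376 to 139582797, minus strand), was at 3.32, 0 and 0.822 CPM in the A1G tumours, 0.229, 1.69 and 1.53 CPM in the Ptch1 tumours and 19.2, 15.8 and 14.98 CPM in cerebellum, so that no tumour library came near the cerebellum range. It fell in both kinds (log2 -3.59, SE 0.88, adjusted p = 0.00792 in A1G tumours and -3.79, SE 0.85, adjusted p = 0.00376 in Ptch1 tumours). The A1G change was -5.40 without A1G replicate 1 and -2.97 without A1G replicate 2.

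All 3 precursor genes rose in both tumour kinds and lay above cerebellum without overlap, as 22.5% of all tested genes did in the A1G tumours and 27.2% in the Ptch1 tumours, with a median log2 fold change of 3.10 in A1G tumours and 3.74 in Ptch1 tumours. Pdgfra, the growth factor receptor of the dividing precursor (chromosome 5, 75152292 to 75198215, plus strand), was at 597, 112 and 589 CPM in the A1G tumours, 836, 559.8 and 625 CPM in the Ptch1 tumours and 56.7, 55.9 and 38.5 CPM in cerebellum. Every tumour library lay above every cerebellum library, and A1G replicate 2 was the lowest tumour. The mean was 8.58 times that of cerebellum in A1G tumours (log2 fold change 3.10, SE 0.52, adjusted p = 0.000802) and 13.4 times in Ptch1 tumours (log2 fold change 3.74, SE 0.54, adjusted p = 0.000191). C1ql1, a secreted C1q-like protein found in precursors and also made by climbing fibre neurons, which signal to Purkinje cells (chromosome 11, 102939264 to 102946688, minus strand), was at 98.0, 222 and 73.2 CPM in the A1G tumours, 92.3, 104 and 64.7 CPM in the Ptch1 tumours and 3.94, 4.26 and 9.78 CPM in cerebellum. Even the lowest tumour value lay several times above the highest cerebellum value. Its mean was 21.9 times that of cerebellum in A1G tumours (log2 fold change 4.42, SE 0.51, adjusted p = 5.48e-05) and 14.5 times in Ptch1 tumours (log2 fold change 3.83, SE 0.50, adjusted p = 9.17e-05). The A1G change was 3.80 without A1G replicate 2, in which C1ql1 was highest and Pdgfra lowest, and 5.02 without cerebellum replicate 3.

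Cspg4, the NG2 proteoglycan of precursors and pericytes (chromosome 9, 56865033 to 56899870, plus strand), was at 77.0, 39.3 and 46.9 CPM in the A1G tumours, 43.5, 22.2 and 73.2 CPM in the Ptch1 tumours and 9.98, 16.7 and 21.2 CPM in cerebellum. No tumour library overlapped cerebellum, although Ptch1 replicate 2 lay only just above cerebellum replicate 3. Cspg4 rose in A1G tumours (log2 fold change 1.76, SE 0.46, adjusted p = 0.0110) and in Ptch1 tumours (log2 fold change 1.52, SE 0.45, adjusted p = 0.0186). The Ptch1 call ended without Ptch1 replicate 3 (log2 1.03), cerebellum replicate 1 (1.27) or cerebellum replicate 2 (1.54), with an adjusted p of 0.00382 to 0.0910 over 17 alternatives. Pericytes also make Cspg4 and fibroblasts also make Pdgfra, so markers of both were summed. The 10 pericyte and smooth muscle markers summed to 102 to 299 CPM in the A1G tumours, 66.2 to 149 CPM in the Ptch1 tumours and 237 to 281 CPM in cerebellum. Of the 9 that were tested, 1 rose and 3 fell in A1G tumours, and 0 rose and 4 fell in Ptch1 tumours. Among all tested genes 16.3% rose and 16.1% fell in A1G tumours, and 20.2% rose and 19.7% fell in Ptch1 tumours. The pericyte channel genes Abcc9 and Kcnj8 ran against most of the list. Abcc9 was at 99.2, 14.0 and 11.5 CPM in the A1G tumours, 13.3, 19.2 and 11.9 CPM in the Ptch1 tumours and 9.98, 6.39 and 13.2 CPM in cerebellum, and was the 1 that rose in A1G tumours, although A1G replicate 3 lay within the cerebellum range. Kcnj8 was at 67.8, 4.68 and 5.76 CPM in the A1G tumours, 7.56, 17.3 and 16.5 CPM in the Ptch1 tumours and 4.202, 7.30 and 3.59 CPM in cerebellum. A1G replicate 1 held the highest A1G value in 7 of the 10 pericyte markers and also the highest Cspg4. The pericyte receptor Pdgfrb was at 35.02, 17.8 and 20.97 CPM in the A1G tumours, 17.4, 15.7 and 20.7 CPM in the Ptch1 tumours and 29.7, 40.7 and 47.9 CPM in cerebellum. The 10 meningeal and vascular fibroblast markers summed to 131 to 207 CPM in the A1G tumours, 159 to 293 CPM in the Ptch1 tumours and 208 to 251 CPM in cerebellum. Of these 10, 1 rose and 3 fell in A1G tumours, and 2 rose and 3 fell in Ptch1 tumours, beside the same shares of all tested genes as for the pericyte markers. The part of either cell type in the precursor gene levels was not tested.

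The genes of the next stage did not move as a block. Gpr17, a receptor that marks committed precursors and is switched off as they mature, was at 57.5, 35.9 and 43.6 CPM in the A1G tumours, 42.8, 8.09 and 5.36 CPM in the Ptch1 tumours and 81.7, 62.9 and 57.3 CPM in cerebellum. A1G replicate 1 lay inside the cerebellum range, and among Ptch1 tumours replicate 1 stood far above replicates 2 and 3. Gpr17 fell in Ptch1 tumours (log2 fold change -1.83, SE 0.60, adjusted p = 0.0277) and did not pass in A1G tumours (log2 fold change -0.56, SE 0.58, adjusted p = 0.495). The Ptch1 call ended without Ptch1 replicate 2 (log2 -1.45), Ptch1 replicate 3 (-1.42), cerebellum replicate 1 (-1.67) or cerebellum replicate 2 (-1.88), the change was -3.28 without Ptch1 replicate 1, and the adjusted p ran from 0.000163 to 0.0913 over 17 alternatives. Bcas1, a marker of early myelinating oligodendrocytes, was at 63.4, 243 and 44.4 CPM in the A1G tumours, 144, 149 and 72.8 CPM in the Ptch1 tumours and 169, 157 and 225 CPM in cerebellum. A1G replicate 2 was above all cerebellum libraries and the other A1G tumours were below them. Neither kind passed the test (log2 -0.65, SE 0.53, in A1G tumours and -0.59, SE 0.53, in Ptch1 tumours). Without A1G replicate 2 the A1G change was -1.77 with an adjusted p of 0.00370, in a range of 0.00370 to 0.744. Enpp6, a choline phosphodiesterase of newly formed oligodendrocytes, was at 3.32, 0.312 and 2.06 CPM in the A1G tumours, 4.58, 0.112 and 0 CPM in the Ptch1 tumours and 23.6, 32.2 and 23.4 CPM in cerebellum, with every tumour below every cerebellum library. It needed the cerebellum libraries to pass the filter and was called lower in both (log2 -3.81 and -4.07). No p is given for Enpp6, since its fall follows in part from that filter. The A1G change was -4.54 without A1G replicate 1, and the Ptch1 change became -7.84 if Ptch1 replicate 1 was left out and -3.37 if replicate 2 was. Ptch1 replicates 2 and 3 held 1 and 0 fragments of Enpp6, so the -7.84 is no measure of size.

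The structural genes of the sheath showed the lowest median of the 6 roles. Each of the 9 fell in both tumour kinds, Opalin among them having entered the test through cerebellum alone. No tumour library overlapped cerebellum in any of them, where 23.4% of all tested genes lay below cerebellum without overlap in the A1G tumours and 27% in the Ptch1 tumours. The median log2 fold change was -4.96 in A1G tumours and -5.74 in Ptch1 tumours (-4.32 and -5.39 with Opalin at its bound). Mbp, the basic protein that compacts the sheath and the most abundant member in cerebellum per length, was at 234, 248 and 188 CPM in the A1G tumours, 266, 50.2 and 108 CPM in the Ptch1 tumours and 4532, 4175 and 4653 CPM in cerebellum. The A1G libraries lay close together, while Ptch1 replicate 1 held several times the level of Ptch1 replicate 2. The means were 5.02% of cerebellum in A1G tumours (log2 fold change -4.32, SE 0.53, adjusted p = 8.53e-05) and 3.17% in Ptch1 tumours (log2 fold change -4.98, SE 0.54, adjusted p = 2.58e-05, and -5.83 without Ptch1 replicate 1).

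Mobp, a small basic protein of the major dense line (chromosome 9, 120149707 to 120181484, plus strand) whose 6 Sox-type cores are printed above, fell the furthest among sheath genes with fragments in every group. It was at 5.16, 2.495 and 4.52 CPM in the A1G tumours, 1.37, 0.786 and 3.06 CPM in the Ptch1 tumours and 472, 502 and 440.5 CPM in cerebellum. The means were 0.861% of cerebellum in A1G tumours (log2 fold change -6.87, SE 0.44, adjusted p = 9.42e-07) and 0.369% in Ptch1 tumours (log2 fold change -8.28, SE 0.48, adjusted p = 3.63e-07). Mog, a glycoprotein of the outer sheath surface (chromosome 17, 37010743 to 37023398, minus strand), was at 4.42, 2.81 and 8.22 CPM in the A1G tumours, 2.06, 1.46 and 0.383 CPM in the Ptch1 tumours and 75.1, 98.8 and 125 CPM in cerebellum. Every A1G value exceeded every Ptch1 value. Mog changed by -4.29 on the log2 scale in A1G tumours (SE 0.47, adjusted p = 3.91e-05) and -6.12 in Ptch1 tumours (SE 0.52, adjusted p = 4.02e-06).

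Mag, the adhesion protein of the innermost wrap that faces the axon (chromosome 7, 30899176 to 30914873, minus strand), was at 12.2, 3.43 and 8.64 CPM in the A1G tumours, 14.4, 0.225 and 0.766 CPM in the Ptch1 tumours and 261, 264 and 296 CPM in cerebellum. Ptch1 replicate 1 held the highest tumour value and Ptch1 replicates 2 and 3 the lowest. Its change was -5.09 in A1G tumours (SE 0.96, adjusted p = 0.00171) and -5.74 in Ptch1 tumours (SE 0.99, adjusted p = 0.000669), with -9.42 once Ptch1 replicate 1 was left out and -5.08 once replicate 2 was. Ptch1 replicates 2 and 3 held 2 fragments of Mag each, under the floor of 3. The -9.42 therefore rests on few fragments and is no measure of size. Cnp, the cyclic nucleotide phosphodiesterase that keeps channels of cytoplasm open in the sheath (chromosome 11, 100574904 to 100591729, plus strand), was at 49.0, 43.4 and 39.9 CPM in the A1G tumours, 21.98, 8.76 and 3.45 CPM in the Ptch1 tumours and 502, 515 and 442 CPM in cerebellum. The 3 groups formed 3 separate ranges. Of the sheath genes Cnp kept the largest share of the cerebellum mean in A1G tumours, 9.07% (log2 fold change -3.46, SE 0.47, adjusted p = 0.000190), beside 2.34% in Ptch1 tumours (log2 fold change -5.39, SE 0.52, adjusted p = 1.08e-05, and -6.22 without Ptch1 replicate 1).

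Cldn11, the tight junction claudin of myelin (chromosome 3, 31149920 to 31164324, plus strand), was at 13.3, 10.6 and 12.3 CPM in the A1G tumours, 7.33, 3.82 and 2.68 CPM in the Ptch1 tumours and 199, 183 and 183 CPM in cerebellum, again in 3 separate ranges. It fell in A1G tumours (log2 fold change -3.96, SE 0.34, adjusted p = 6.80e-06) and in Ptch1 tumours (log2 fold change -5.33, SE 0.37, adjusted p = 9.35e-07). Mal, a proteolipid of myelin membrane traffic, was at 4.79, 6.55 and 7.40 CPM in the A1G tumours, 1.83, 5.39 and 2.30 CPM in the Ptch1 tumours and 333, 328 and 225 CPM in cerebellum (log2 -5.56 in A1G and -6.42 in Ptch1 tumours, and -7.16 in these without Ptch1 replicate 2). Ermn, a cytoskeletal protein of late myelination, was at 4.79, 2.81 and 4.52 CPM in the A1G tumours, 5.04, 1.24 and 7.28 CPM in the Ptch1 tumours and 173, 123 and 80.3 CPM in cerebellum (log2 -4.96 and -4.91). Both showed wide gaps between either tumour kind and cerebellum. Opalin, a glycoprotein of mature oligodendrocytes (chromosome 19, 41061710 to 41077113, minus strand), had no fragment in any of the 6 tumour libraries and was at 7.88, 14.6 and 5.19 CPM in cerebellum. Against a floor of 3 fragments per library it was at least 8.45-fold lower in A1G tumours and at least 12.7-fold lower in Ptch1 tumours. No p is given for it, since it was tested only for its level in cerebellum.

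The 3 genes of myelin lipid synthesis and acetate supply fell in both tumour kinds, where 16.1% of all tested genes fell in A1G tumours and 19.7% in Ptch1 tumours. No tumour overlapped cerebellum in any of the 3. Below cerebellum without overlap lay 23.4% of all tested genes in the A1G tumours and 27% in the Ptch1 tumours. Fa2h and Aspa needed the cerebellum libraries to pass the filter, so no p is given for them. That leaves Ugt8a as the member whose fall does not follow in part from the filter. Ugt8a, the galactosyltransferase that makes galactocerebroside (chromosome 3, 125865271 to 125938619, minus strand), was at 22.5, 5.30 and 12.3 CPM in the A1G tumours, 12.6, 4.04 and 3.83 CPM in the Ptch1 tumours and 229, 190.3 and 133 CPM in cerebellum. Its change was -3.79 in A1G tumours (SE 0.55, adjusted p = 0.000308, and -4.40 without A1G replicate 1) and -4.74 in Ptch1 tumours (SE 0.58, adjusted p = 5.96e-05, and -5.53 without Ptch1 replicate 1). Fa2h, the fatty acid hydroxylase of myelin galactolipids, was at 0.737, 2.81 and 0 CPM in the A1G tumours, 1.37, 0 and 0 CPM in the Ptch1 tumours and 22.1, 40.4 and 59.5 CPM in cerebellum. No fragment of Fa2h was found in A1G replicate 3 or Ptch1 replicates 2 and 3, and the changes of -4.97 and -6.51 rest on few fragments. They were -6.61 in A1G tumours without A1G replicate 2, and in Ptch1 tumours -5.59 without Ptch1 replicate 2 and -10.35 without Ptch1 replicate 1, which leaves that group without a fragment. Aspa, the aspartoacylase that frees acetate for lipid synthesis, was at 1.84, 0 and 2.06 CPM in the A1G tumours, 0.458, 0.899 and 0 CPM in the Ptch1 tumours and 20.0, 22.2 and 11.6 CPM in cerebellum. Its change was -3.81 in A1G tumours (-3.18 without A1G replicate 2) and -4.92 in Ptch1 tumours (-5.84 without Ptch1 replicate 2).

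Of the 12 other genes of mature oligodendrocytes, most of which other cells make too, 8 fell in A1G tumours and 9 in Ptch1 tumours, and 0 rose. Among all tested genes 16.1% fell and 16.3% rose in A1G tumours, and 19.7% fell and 20.2% rose in Ptch1 tumours. The 8 were Enpp2, Gpr37, Car2, Tspan2, Plekhb1, Gsn, Cryab and Ndrg1, and Tmem125 was the ninth in Ptch1 tumours. Gsn, an actin-severing protein, was among the steadiest, at 26.5, 20.9 and 23.9 CPM in the A1G tumours, 27.0, 14.6 and 20.3 CPM in the Ptch1 tumours and 279.9, 271 and 191 CPM in cerebellum (log2 -3.38 and -3.59). Tspan2, a tetraspanin of the sheath, was at 20.6, 16.2 and 10.7 CPM in the A1G tumours, 7.33, 18.5 and 9.96 CPM in the Ptch1 tumours and 164, 181 and 240.4 CPM in cerebellum (log2 -3.62 and -4.00). Both genes kept the tumour kinds together and well under cerebellum. Car2, the carbonic anhydrase of oligodendrocytes and some other glia, changed by -2.72 on the log2 scale in A1G tumours and -3.52 in Ptch1 tumours (-4.41 without Ptch1 replicate 2). Ndrg1, a myelin maintenance protein that many tissues make, changed by -2.53 in A1G tumours and -3.26 in Ptch1 tumours (-4.09 without Ptch1 replicate 1). Gpr37, a receptor that restrains myelination, was at 6.27, 37.7 and 6.17 CPM in the A1G tumours, 7.78, 4.16 and 0.383 CPM in the Ptch1 tumours and 105, 96.4 and 89.9 CPM in cerebellum, with A1G replicate 2 well above the other tumours. Its A1G change of -2.52 (adjusted p = 0.0170) was -3.96 without A1G replicate 2 and lost its call without A1G replicate 1 or 3 (-2.13 each), within an adjusted p of 0.000832 to 0.0598 over 17 alternatives, while the Ptch1 change was -4.48 (adjusted p = 0.000764, and -5.15 without Ptch1 replicate 1).

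Enpp2, the lysophospholipase autotaxin, which choroid plexus also makes, was at 7.37, 21.8 and 9.46 CPM in the A1G tumours, 7.33, 4.38 and 5.75 CPM in the Ptch1 tumours and 184, 82.4 and 83.9 CPM in cerebellum. Its highest value was in cerebellum replicate 1, the library with the most Ttr. The change was -3.16 in A1G tumours (adjusted p = 0.000351, and -3.79 without A1G replicate 2) and -4.34 in Ptch1 tumours (adjusted p = 3.88e-05). Without cerebellum replicate 1 the changes were -2.67 and -3.85 and both calls held. Tmem125, a transmembrane protein of unsettled function, was at 0, 0.312 and 2.47 CPM in the A1G tumours, had no fragment in Ptch1 tumours, and was at 5.78, 6.39 and 4.79 CPM in cerebellum. It needed the cerebellum libraries to pass the filter, so no p is given for its fall in Ptch1 tumours, where it was at least 7.80-fold lower. In A1G tumours Tmem125 did not pass (log2 -2.64), and no p is given there for the same reason. DESeq2, both limma fits and the fit without A1G replicate 3 called the A1G change, which also follows in part from the filter.

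Trf, Apod and Qdpr did not pass in either tumour kind, and other cells make all 3. Trf, the iron carrier transferrin, was at 270.2, 35.6 and 181 CPM in the A1G tumours, 464, 44.6 and 109.6 CPM in the Ptch1 tumours and 475, 392 and 273 CPM in cerebellum. All A1G libraries lay below cerebellum, A1G replicate 1 only just, with a change of -1.23 (adjusted p = 0.245, in a range of 0.0433 to 0.456 over 17 alternatives, of which 1 called it). Ptch1 replicate 1 reached the cerebellum range, and the Ptch1 change of -0.88 was -2.31 without it, with an adjusted p of 0.0291 in a range of 0.0291 to 0.700 over 17 alternatives. Apod, the lipid carrier apolipoprotein D of oligodendrocytes, astrocytes and perivascular cells, was at 83.7, 54.3 and 343 CPM in the A1G tumours, 421, 21.2 and 125 CPM in the Ptch1 tumours and 178, 199.8 and 161 CPM in cerebellum. The highest Ptch1 value of Apod was in replicate 1, in which the 10 fibroblast markers summed to 293 CPM, against 159 and 193 CPM in Ptch1 replicates 2 and 3. Of the 10, 6 were highest in that library among the Ptch1 tumours and 4, Col1a1, Col1a2, Fbln1 and Islr, were not. The part of fibroblasts in the Apod level was not tested. Qdpr, the dihydropteridine reductase that regenerates a cofactor of amine synthesis, was at 14.4, 44.6 and 3.29 CPM in the A1G tumours, 19.5, 23.1 and 4.21 CPM in the Ptch1 tumours and 20.0, 23.7 and 46.5 CPM in cerebellum, and the 3 groups overlapped.

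Set beside each other, the summed precursor and myelin genes stood in very different proportion in tumours and in cerebellum. The 3 precursor genes summed to 772, 373 and 709 CPM in the A1G tumours, 972, 686 and 763 CPM in the Ptch1 tumours and 70.6, 76.9 and 69.5 CPM in cerebellum. The 9 myelin sheath genes summed to 328, 320.0 and 274 CPM in the A1G tumours, 319.9, 71.9 and 128 CPM in the Ptch1 tumours and 6555, 6204 and 6450.5 CPM in cerebellum. Both sums separated the tumours from cerebellum without overlap, in opposite directions. The ratio of the sums was 2.36, 1.17 and 2.59 in A1G tumours, 3.04, 9.55 and 5.98 in Ptch1 tumours and 0.0108, 0.0124 and 0.0108 in cerebellum. Every Ptch1 ratio was above every A1G ratio. Mbp alone made up 68.8% to 77.5% of the myelin sum in A1G tumours, 69.8% to 84.4% in Ptch1 tumours and 67.3% to 72.1% in cerebellum. Pdgfra made up 77.3%, 29.9% and 83.1% of the precursor sum in A1G tumours, 81.6% to 86.0% in Ptch1 tumours and 55.5% to 80.3% in cerebellum, so that A1G replicate 2 differed from the other tumours in which precursor gene led. These sums are not divided by gene length, so the ratios compare libraries with each other and do not say which of the 2 gene sets had more RNA, and no test was run on them.

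**Figure D3:**
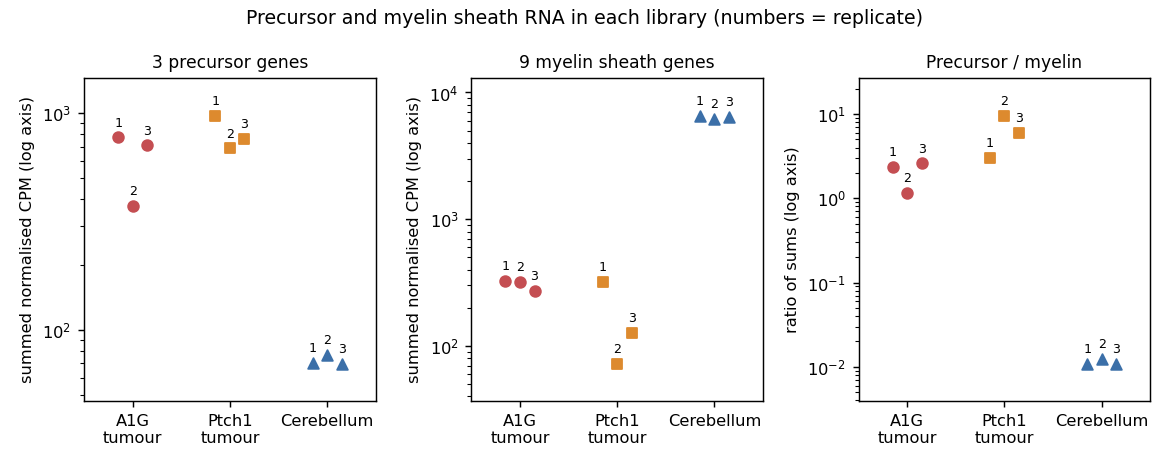
Summed normalised CPM of the 3 precursor genes, summed normalised CPM of the 9 myelin sheath genes and their ratio, each on a log axis, with 1 symbol per library and its replicate number. The ratio is 1.17 or more in all 6 tumours and 0.0124 or less in the 3 cerebellum libraries.

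The order of the members within a library can be read per length from the deposited FPKM values. Mbp held rank 2, 2 and 4 of 34 in A1G tumours, rank 4, 10 and 6 in Ptch1 tumours and rank 1 in each cerebellum library. Mobp held ranks 24, 29 and 26 in A1G tumours, 29, 28 and 23 in Ptch1 tumours and rank 2 in each cerebellum library. Pdgfra ran the other way, with ranks 3, 8 and 2 in A1G tumours, 3, 2 and 1 in Ptch1 tumours and 30, 31 and 32 in cerebellum. C1ql1 held ranks 4, 1 and 5 in A1G tumours, 5, 1 and 3 in Ptch1 tumours and 32, 32 and 27 in cerebellum. Cspg4 was the last of all 34 in each cerebellum library and stood at ranks 16, 19 and 16 in A1G tumours and 16, 16 and 10 in Ptch1 tumours. Olig2 stood at ranks 6, 11 and 6 in A1G tumours, 7, 4 and 5 in Ptch1 tumours and 27, 27 and 24 in cerebellum. Within a tumour, then, FPKM of Pdgfra and C1ql1 stood among those of Trf, Apod and Mbp, while in cerebellum both were near the foot of the list.

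Both myelin genes and mature neuron markers fell in the tumours, and their levels were set side by side as percent of cerebellum. In A1G tumours the 9 sheath genes had a median of 3.23% of their cerebellum mean, and 10 mature neuron markers a median of 7.49%. In Ptch1 tumours the medians were 1.88% for the sheath genes and 4.32% for the neuron markers. All sheath medians here, also those by library, count Opalin as 0%. Its floor of 3 fragments was 10.1% to 13.4% of the cerebellum mean in A1G libraries and 3.65% to 12.5% in Ptch1 libraries. With Opalin at that floor the middle sheath gene was Mbp in A1G tumours (5.02%) and Cnp in Ptch1 tumours (2.34%). By library the sheath medians were 4.44%, 2.24% and 3.61% in A1G tumours and 3.89%, 1.13% and 0.709% in Ptch1 tumours, and the neuron medians 4.73%, 5.47% and 10.2% in A1G tumours and 1.59%, 1.29% and 5.51% in Ptch1 tumours. Single genes spread widely around these medians in both lists. Among sheath genes with fragments in A1G tumours they ran from 0.861% for Mobp to 9.07% for Cnp. How much cerebellum each tumour sample held is not given in the labels and was not tested.

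**Figure D4:**
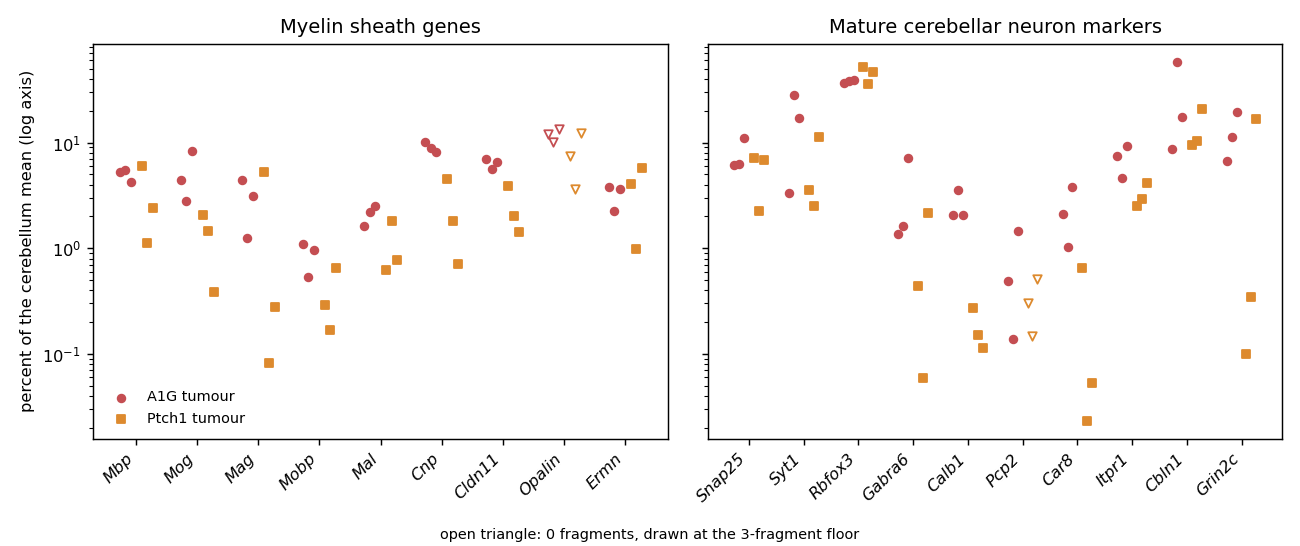
Level of each of the 9 myelin sheath genes and of 10 mature cerebellar neuron markers in each tumour library, as percent of the cerebellum mean on a log axis. Open triangles mark libraries without a fragment, drawn at the floor of 3 fragments. Sheath genes with fragments reach at most 10.1% in the A1G tumours (circles) and 5.97% in the Ptch1 tumours (squares).

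The comparison of A1G with Ptch1 tumours sets tumours with the A1G allele and the Cre beside tumours with the Ptch1 mutation alone. No member passed in either direction (edgeR, 0 higher and 0 lower, beside 2 higher and 0 lower, or 0.0139% and 0%, of all tested genes). At an unadjusted p under 0.05, 9 members were higher in A1G tumours and 0 lower, beside 5.66% and 4.98% of all tested genes. DESeq2 called 2 members higher and 0 lower, beside 107 higher and 56 lower of all tested genes, and both limma fits called 0 members. The A1G level was the higher by the fit in 26 of 34 members, beside 51.5% of all genes, and the median log2 fold change was 0.70 (0.66 with Tmem125 at its bound), beside 0.02. The 3 A1G libraries lay above all Ptch1 libraries in 6 members, where 6.69% of all genes did so, and below them in 1, Olig2, where 8.84% did so. The median was 0.86 for the sheath genes, 1.11 for the lipid genes, 0.24 for the precursor genes and 0.06 for the transcription factors. Nothing in the design separates the A1G allele from the Cre.

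Of the sheath genes, Cnp and Cldn11 had the smallest p. Cnp averaged 44.1 ± 4.61 CPM in the A1G tumours and 11.4 ± 9.54 CPM in the Ptch1 tumours (SD, n = 3 each), with a log2 fold change of 1.93 (SE 0.46, unadjusted p = 0.00126, adjusted p = 0.268 by edgeR). It passed with DESeq2 (adjusted p = 0.00865) and without a filter on low values (0.0236), in a range of 0.00865 to 0.462 over 17 alternatives. Cldn11 averaged 12.1 ± 1.35 CPM in the A1G tumours and 4.61 ± 2.42 CPM in the Ptch1 tumours (log2 fold change 1.36, SE 0.35, adjusted p = 0.268 by edgeR), and passed with DESeq2 (0.0324, in a range of 0.0324 to 0.500). In both genes every A1G library lay above every Ptch1 library, as the values per library show. The exact two-sided permutation test of their means gave 0.1, the smallest p that 3 against 3 libraries allow. Exons of Cnp overlap the gene Dnajc7 on the other strand, and whether fragments were counted by strand is not stated.

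Mog was higher in A1G tumours by 1.83 (SE 0.53, unadjusted p = 0.00450, adjusted p = 0.297 by edgeR) without overlap, and Mobp by 1.41 (SE 0.48, unadjusted p = 0.0119, adjusted p = 0.348) with overlap. Mbp did not pass, at 223 ± 31.2 CPM in the A1G tumours and 141 ± 112 CPM in the Ptch1 tumours (SD, n = 3 each, log2 fold change 0.66, SE 0.46, adjusted p = 0.640 by edgeR). Its log2 fold change ran from 0.26 without Ptch1 replicate 2 to 1.51 without Ptch1 replicate 1. That of Mag ran from -0.02 without Ptch1 replicate 2 to 4.32 without Ptch1 replicate 1, so its direction changed with the Ptch1 library left out. The 4.32 rests on Ptch1 libraries with 2 fragments of Mag each. Ptch1 replicate 1 was the library in which Mbp, Mag, Cnp, Cldn11 and Mog were highest among the Ptch1 tumours.

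Plekhb1, Cryab and Enpp2 were the other members whose A1G libraries all lay above the Ptch1 libraries with an unadjusted p under 0.05. Plekhb1, a membrane-linked pleckstrin homology protein (chromosome 7, 100642892 to 100662414, minus strand), was at 34.3, 47.1 and 52.2 CPM in the A1G tumours, 29.3, 10.2 and 22.6 CPM in the Ptch1 tumours and 280.5, 219 and 246 CPM in cerebellum (log2 1.12 for A1G over Ptch1 tumours, SE 0.36, unadjusted p = 0.00852, adjusted p = 0.328 by edgeR). Cryab, a small heat shock protein of glia and muscle (chromosome 9, 50751325 to 50756636, plus strand), was at 8.11, 9.67 and 11.1 CPM in the A1G tumours, 6.41, 3.59 and 2.68 CPM in the Ptch1 tumours and 49.6, 55.0 and 96.8 CPM in cerebellum (log2 1.16, SE 0.42, unadjusted p = 0.0160, adjusted p = 0.373 by edgeR), and its exons overlap Hspb2 on the other strand. For Enpp2 (chromosome 15, 54838901 to 54952892, minus strand) the log2 fold change was 1.17 (SE 0.48, unadjusted p = 0.0301, adjusted p = 0.415 by edgeR), and 0.55 without A1G replicate 2. In each of the 3 genes the A1G range sat between the Ptch1 range and the far higher cerebellum range. For Enpp2 the A1G and Ptch1 ranges almost touched, at 7.37 CPM in A1G replicate 1 (20 fragments) and 7.33 CPM in Ptch1 replicate 1 (32 fragments). Gpr37 and Tmem125 also had an unadjusted p under 0.05, with overlapping libraries.

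No precursor gene passed between the tumour kinds. Pdgfra averaged 433 ± 278 CPM in the A1G tumours and 674 ± 144 CPM in the Ptch1 tumours (SD, n = 3 each, log2 fold change -0.64, SE 0.48, adjusted p = 0.660 by edgeR). Cspg4 averaged 54.4 ± 20.0 CPM in the A1G tumours and 46.3 ± 25.6 CPM in the Ptch1 tumours (log2 fold change 0.24, SE 0.44, adjusted p = 0.882 by edgeR), and C1ql1 131 ± 79.7 CPM in the A1G tumours and 87.1 ± 20.3 CPM in the Ptch1 tumours (log2 fold change 0.59, SE 0.43, adjusted p = 0.650 by edgeR). All 3 overlapped, and Cspg4 and C1ql1 changed sign when 1 library was left out, to -0.10 without Ptch1 replicate 2 and -0.03 without A1G replicate 2. Olig2 was lower in A1G tumours in every library, at 63.5 ± 27.6 CPM in the A1G tumours and 91.0 ± 6.40 CPM in the Ptch1 tumours (log2 fold change -0.52, SE 0.34, adjusted p = 0.605 by edgeR), a difference within the spread between A1G libraries. Sox10 averaged 18.5 ± 10.9 CPM in the A1G tumours and 10.4 ± 3.91 CPM in the Ptch1 tumours (log2 fold change 0.85, SE 0.46, adjusted p = 0.529 by edgeR), and Gpr17 45.7 ± 11.0 CPM in the A1G tumours and 18.8 ± 20.9 CPM in the Ptch1 tumours (log2 fold change 1.27, SE 0.59, adjusted p = 0.475 by edgeR). Of the 10 mature neuron markers, 9 were fitted higher in A1G tumours, with a median log2 fold change of 1.39 (1.21 with genes absent from Ptch1 tumours at their bound) and 1 called, Calb1. Calb1, the calcium buffer of Purkinje cells, was at 14.0, 24.02 and 14.0 CPM in the A1G tumours, 1.83, 1.011 and 0.766 CPM in the Ptch1 tumours and 726, 746 and 548 CPM in cerebellum. The part of retained cerebellar tissue in the myelin values was not tested.

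**Figure D5:**
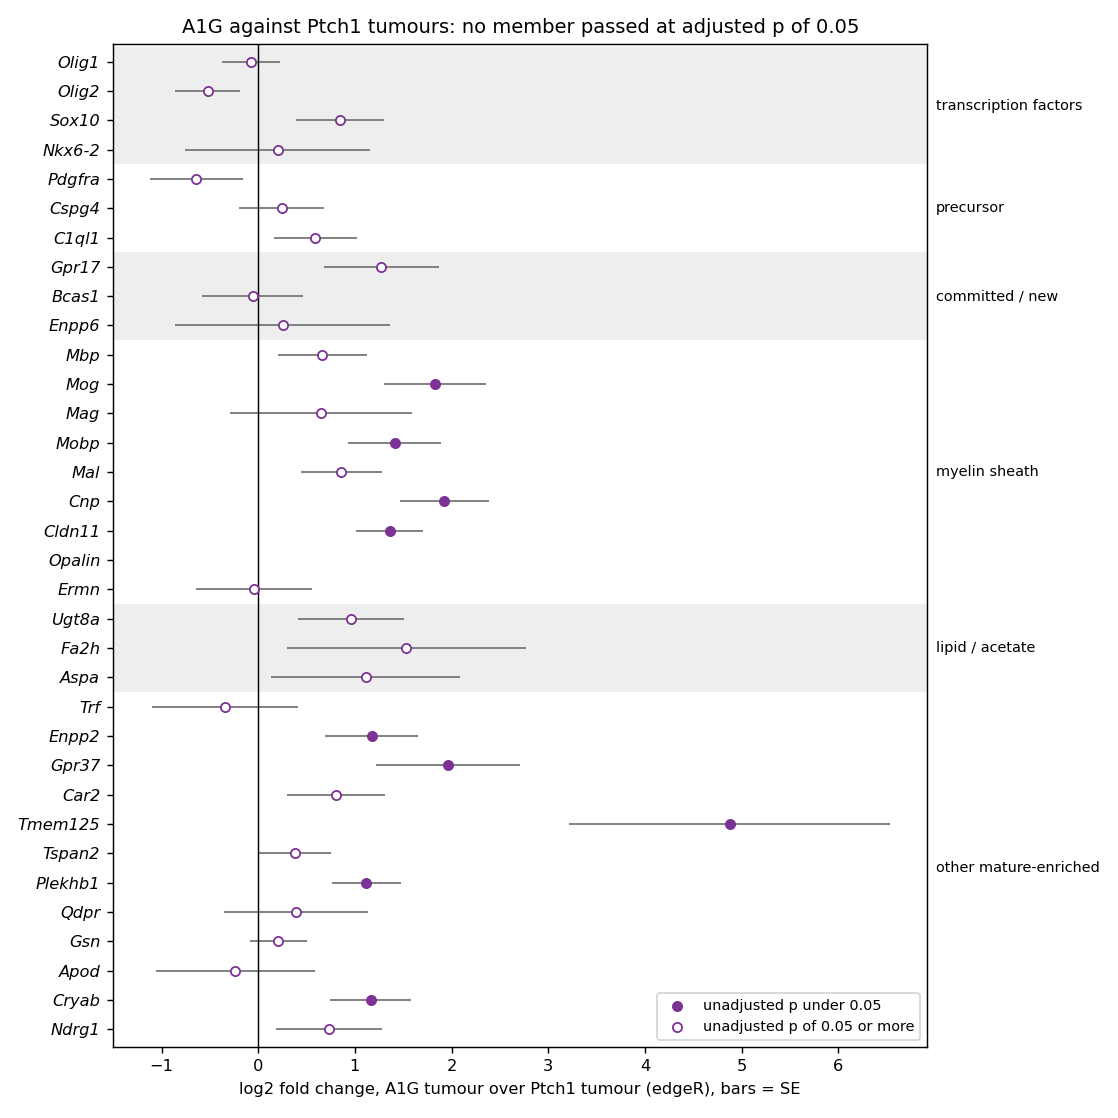
Log2 fold change of each member in A1G over Ptch1 tumours on the horizontal axis, with bars for the standard error of edgeR's fit and filled symbols where the unadjusted p was under 0.05. The 9 filled symbols all lie right of 0, none passed at an adjusted p of 0.05, Opalin has no symbol because no tumour library held a fragment of it, and the value of Tmem125 stands for a Ptch1 group without a fragment.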

How the data were processed

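Expected counts of fragments per gene, which need not be whole, a scaled signal and FPKM values were deposited per library by the authors, per the file headers. The submitters' processing notes name Bowtie 0.12.2 and mm10 without a role. The counting program, its use of strand and the annotation are not given in the sources used here. For this report the expected counts deposited by the authors were rounded to whole numbers and tested, the FPKM values served for the filter, the ranks and the limma alternatives, and the scaled signal was used only as a check. The 34 members and the marker lists were chosen with earlier results of these data known.

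The 14337 genes that reached an FPKM of 1 in 3 or more libraries were scaled by TMM over the 9 libraries and fitted with edgeR 4.0.16 (R 4.3.3), with 1 mean per group, the quasi-likelihood test, Benjamini-Hochberg adjustment over all tested genes and a threshold of 0.05. Single values were compared by an exact two-sided permutation test in SciPy 1.17.1. Alternatives were median-of-ratios scaling, no filter, a filter on 6 libraries, DESeq2 1.42.0, limma 3.58.1 on log2(FPKM + 1) and log2(FPKM + 0.1), a fit of the 2 groups compared, a replicate block, and leaving out each library. The code was tested on simulated data. Fixed members, and any whose tumour libraries separated with an unadjusted p under 0.05, are given in full, and other members are given more briefly. Those with wide leave-one-out moves, and marker genes given by value, were chosen after their values were seen. Coordinates are from GENCODE M21 (mm10), and those on chromosome 18 are not reported. Exons of 14 members overlap exons of another annotated gene. Depth was 2350941 to 9290237 fragments per library, and the Spearman correlation between libraries of a group was 0.887 to 0.968.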

Additional observations from a re-analysis of the deposited data

How the results depend on the processing

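Against cerebellum the member counts were stable over 17 alternatives: 3 to 4 rose and 18 to 23 fell in A1G tumours, and 3 to 4 rose and 20 to 26 fell in Ptch1 tumours, with the fewest falls under the stricter filter, which tests fewer genes. Between the tumour kinds the counts over all genes depended on the tool. Higher calls were 2 by edgeR, 72 without a filter, 107 with DESeq2, 0 with limma on log2(FPKM + 1), 5 with limma on log2(FPKM + 0.1), 0 with only the 2 groups and 0 to 4 when 1 library was left out. Lower calls were 0, 9, 56, 1, 3, 0 and 0 to 1 in the same order. Members called higher were 1 without a filter and 2 with DESeq2. The cause was not tested.

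Direction turned with 1 library left out in A1G over Ptch1 tumours, where log2 fold changes ran from -0.017 to 4.32 for Mag, -0.60 to 0.46 for Ermn, -0.085 to 5.37 for Fa2h, -0.93 to 1.08 for Trf, -1.61 to 0.82 for Nkx6-2, -0.24 to 0.16 for Olig1, -0.10 to 0.73 for Cspg4, -0.028 to 0.88 for C1ql1, -1.18 to 0.33 for Bcas1, -0.47 to 4.02 for Enpp6, -0.84 to 0.89 for Qdpr, -0.0013 to 0.46 for Gsn and -1.45 to 1.15 for Apod. Against cerebellum Apod ran from -1.38 to 0.25 in A1G tumours and from -1.31 to 0.61 in Ptch1 tumours. Other turns were Ermn (0.11 with limma on log2(FPKM + 0.1)), Nkx6-2 (-0.14 and -0.64 with limma), Apod in A1G over Ptch1 tumours (0.16 and 0.18 with limma) and Apod in Ptch1 tumours over cerebellum (-0.72 and -0.75 with limma).

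Replicate numbers did not pair the libraries: same-numbered deviations correlated at -0.0691 to 0.211. With a replicate block, members called were 0 and 0 between the tumour kinds, 4 higher and 23 lower in A1G tumours over cerebellum, and 4 higher and 26 lower in Ptch1 tumours over cerebellum, and all genes called were 2 and 0, 2208 and 2248, and 2805 and 2788. Under the block Trf was called at -1.72 and -1.61 over cerebellum, Ermn between the tumour kinds was 0.025 and Apod in Ptch1 tumours over cerebellum was -0.61. Values of a few fragments, as for Fa2h, Aspa, Enpp6, Tmem125 and Opalin in tumours and Mag in Ptch1 replicates 2 and 3, are limited by depth.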

Other observations

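Genes of the lineage outside the 34 were read from lists of 22 further myelin genes and 16 further precursor genes. Of the 22 myelin genes, 18 fell and 0 rose in A1G tumours, and 21 fell and 1 rose in Ptch1 tumours, beside the background shares of 16.1% and 19.7% of all tested genes that fell. Myrf, the factor that drives myelin genes, was at 6.63, 6.55 and 9.05 CPM in the A1G tumours, 2.75, 1.57 and 3.45 CPM in the Ptch1 tumours and 12.1, 28.0 and 53.5 CPM in cerebellum, and fell in both. Anln, a cytokinesis scaffold that dividing cells make as well as oligodendrocytes, was the 1 that rose, in Ptch1 tumours, at 78.8, 115 and 83.5 CPM against 38.9, 33.4 and 40.9 CPM in cerebellum.

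Most of the 16 further precursor genes did not pass against cerebellum. Vcan, Pcdh15 and Matn4 rose and Megf11 and Bmp4 fell in A1G tumours, while Vcan rose and Tnr, Megf11, Nkx2-2 and Bmp4 fell in Ptch1 tumours. Vcan, a large proteoglycan of the extracellular matrix that many cells secrete, was at 351, 158 and 296 CPM in the A1G tumours, 473, 208 and 254 CPM in the Ptch1 tumours and 64.3, 102 and 96.0 CPM in cerebellum. Megf11, a receptor with epidermal growth factor repeats, was at 32.8, 18.4 and 35.8 CPM in the A1G tumours, 9.85, 7.53 and 22.6 CPM in the Ptch1 tumours and 140.2, 172 and 226 CPM in cerebellum. Nkx2-2, a homeobox factor of precursors, was at 0.369, 7.49 and 5.35 CPM in the A1G tumours, 1.83, 0.674 and 0 CPM in the Ptch1 tumours and 5.51, 8.82 and 21.8 CPM in cerebellum. Lhfpl3, a membrane protein of precursors, was at 43.5, 24.6 and 32.5 CPM in the A1G tumours, 31.8, 22.2 and 6.51 CPM in the Ptch1 tumours and 24.4, 20.7 and 20.2 CPM in cerebellum and passed in neither comparison.

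Peripheral myelin was read from 6 Schwann cell markers. Pmp2, a lipid-binding protein of peripheral myelin, was at 0.337 CPM or less in all 9 libraries. Prx and Egr2 rose in both tumour kinds. Prx was at 7.37, 5.30 and 9.87 CPM in the A1G tumours, 3.43, 6.74 and 4.60 CPM in the Ptch1 tumours and 0.263, 0.608 and 1.40 CPM in cerebellum. Egr2 was at 13.3, 4.68 and 17.3 CPM in the A1G tumours, 15.1, 7.64 and 3.45 CPM in the Ptch1 tumours and 1.58, 0.304 and 1.997 CPM in cerebellum. Of 12 astrocyte and Bergmann glia markers 10 fell in each tumour kind, beside 16.1% of all tested genes in A1G tumours and 19.7% in Ptch1 tumours. The 12 markers summed to 1290.0 to 2384 CPM in the A1G tumours, 1190.2 to 2387 CPM in the Ptch1 tumours and 5485 to 6042 CPM in cerebellum.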
